A study of Mus musculus with 2 samples.

Results

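Messenger RNA of 10 mouse genes known as oncofoetal targets of the microRNA let-7 was described in a mesenchymal stem cell line without Dicer and in a line with it. The genes are Igf2bp1, Igf2bp2 and Igf2bp3, which encode RNA-binding proteins, the chromatin protein genes Hmga1 and Hmga2, the nuclear receptor gene Nr6a1, the let-7 regulator Lin28b, the ARID factor genes Arid3a and Arid3b, and the zinc finger gene Plagl2. They were taken by symbol from the authors' deposited comparison, which lists 23227 genes. All 10 were found, 9 had at least 1 read, and 8 were among the 11710 genes tested. A Dicer -/- line (KO) was set against a Dicer f/f line (WT). Both lines are monoclonal and immortalised, were derived from mesenchymal stem cells of adult mice, and are called fibroblasts in other labels. Each genotype is thus 1 clone, so effects of Dicer loss and differences between clones cannot be told apart. RNA was polyA-selected from cells below confluence, and GEO lists 1 sample per genotype. How and when the alleles were deleted is not given in the sources used here. The genes had been chosen with their KO and WT values known, so their levels and ratios are a description and carry no test.

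Let-7 microRNAs are cut from hairpin precursors by Dicer and accumulate as cells differentiate. They are loaded into Argonaute proteins and pair through their seed, bases 2 to 8, with matches in the 3′ UTR of messages, which are then degraded or translated less. As a group, the genes described here are known for their activity in embryonic and foetal tissue. Several of them, though not all, are low in most adult tissues and return in many tumours, hence the word oncofoetal. Lin28 proteins in turn block the maturation of let-7, so that let-7 and Lin28b hold each other down.

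The seed is shared by 10 mouse microRNAs, let-7a to let-7g, let-7i, let-7k and miR-98, made from 12 loci in the RefSeq table (GRCm38.p6). Below are 5 of them, chosen because they differ outside the seed or at their first base, with the seed in capitals.
let-7a-5p: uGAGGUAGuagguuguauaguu
let-7d-5p: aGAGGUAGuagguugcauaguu
let-7e-5p: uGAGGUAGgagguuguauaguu
let-7g-5p: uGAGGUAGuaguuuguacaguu
miR-98-5p: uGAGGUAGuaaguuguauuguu

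The match to this seed is CTACCTC, searched on the message strand of the longest annotated 3′ UTR (GENCODE M21, GRCm38). A match followed by A is called an 8-base match. All 10 genes held at least 1, 27 in all, against 10.7% of the 11312 tested genes with an annotated 3′ UTR. The genes are known let-7 targets, so this is a description of why they are listed together. The sites below are the first of each gene, and for Nr6a1 the sixth, whose match lies 10 bases before the next. Capitals mark the match and, where present, the A after it.
Igf2bp1 (chr11:95961778-95961807, minus strand): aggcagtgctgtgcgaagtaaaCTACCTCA
Igf2bp2 (chr16:22059473-22059502, minus strand): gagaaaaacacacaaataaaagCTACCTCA
Igf2bp3 (chr6:49086787-49086816, minus strand): ttaaacgtgcatttttactcaaCTACCTCA
Hmga1 (chr17:27563270-27563299, plus strand): catcttctcctctgttcacaaaCTACCTCt
Hmga2 (chr10:120364224-120364253, minus strand): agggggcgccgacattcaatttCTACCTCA
Nr6a1 (chr2:38723685-38723714, minus strand): tgatggcaagtgcatcatgaacCTACCTCA
Lin28b (chr10:45381022-45381051, minus strand): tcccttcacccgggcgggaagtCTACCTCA
Arid3a (chr10:79953888-79953917, plus strand): cacatgcaaggcaagtttctttCTACCTCA
Arid3b (chr9:57790361-57790390, minus strand): atgtttatatttcaataaagctCTACCTCt
Plagl2 (chr2:153229898-153229927, minus strand): tctctgattcagaaacacacttCTACCTCt

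Nr6a1 held the most matches, 8 in a 3′ UTR of 4453 bases. Igf2bp1, Hmga2 and Lin28b held 4 each, Arid3a held 2, and Igf2bp2, Igf2bp3, Hmga1, Arid3b and Plagl2 held 1 each. Long 3′ UTRs hold more matches by length alone, so each gene was set beside tested genes of like 3′ UTR length, the shorter of the pair being at most 20% below the longer. Of 925 such genes for Nr6a1, 24.1% had any match and 0% had as many as 8. Of 383 for Igf2bp1, 35.8% had any and 0% had 4. As many as 4 were found in 0.127% of 1570 genes for Hmga2 and in 0.107% of 932 for Lin28b. The single matches of Igf2bp2 and Igf2bp3 were less unusual, with 12.9% and 14.0% of genes of like length holding at least 1. In Arid3b the only 7-base match begins 2148 bases after the stop codon in a 3′ UTR of 2160 bases, and a shorter annotated 3′ UTR of 175 bases lacks it. The shortest annotated 3′ UTR of Hmga1, 49 bases, also lacks its match. The deposited values are per gene and do not show which 3′ UTR was used.

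**Figure D1:**
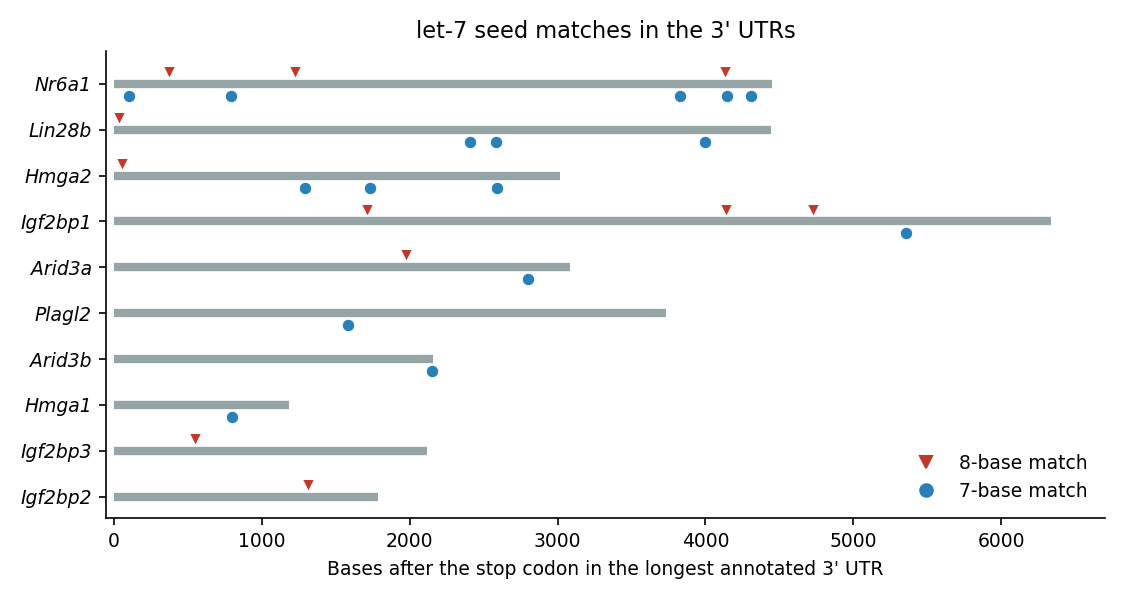
Positions of let-7 seed matches along the 3′ UTR (longest annotated one per gene), in bases after the stop codon. Grey bars are the 3′ UTRs, triangles above them 8-base matches and circles below them 7-base matches. Nr6a1, at the top, holds 8 matches, and 5 genes hold 1 each.

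Matches of other seeds were fewer. The match of miR-125 (CTCAGGG) was found in 6 of the 10 genes, Arid3a, Arid3b, Igf2bp3, Lin28b, Nr6a1 and Plagl2, with 12 matches and 0.371 per kb, against 0.115 per kb over tested genes. That of miR-23 (AATGTGA) was also found in 6 genes, at 0.31 against 0.124 per kb, and that of miR-30 (TGTTTAC) in 5, at 0.279 against 0.121 per kb. For let-7 the density was 0.836 per kb in the 10 genes, against 0.0728 per kb over tested genes. In all, 19 seed families were searched.

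Each deposited mean of a genotype could be written with exactly 1 pair of whole read numbers, which recovered 2 libraries per genotype, called deeper and shallower after their totals, with 15718369 and 14969532 reads in KO and 15369250 and 14135422 in WT. Nothing says whether they came from separate cultures, so their spread may be technical. Values below are normalised reads (reads divided by the library's size factor), with the deeper library first. Dicer1, the targeted gene, had 573 and 557 normalised reads in KO and 804 and 943 in WT. Which exons were deleted is not known from a value for the whole gene. Of 10 markers of mesenchymal stromal cells, 9 were well above the detection floor in both genotypes and Thy1 had 0 reads. The sum of these markers was 89208 and 108318 normalised reads in KO and 158841 and 190249.9 in WT. Col1a1, Col1a2 and Vim carried this sum, and without them it was 13806 and 11325 in KO and 11916 and 10570 in WT. Of the 9, Col1a1 and Col1a2 were called lower in KO and 7 were neither. The 4 haematopoietic markers summed to at most 1.99 normalised reads in any library, the 2 epithelial ones to at most 4.48, the 2 endothelial ones to at most 12.9 (KO) and 6.73 (WT), and the 6 pluripotent or germ cell ones to at most 6.97, with Sox2, Lin28a and Dppa3 at 0. Fewer cells of a type and less RNA per cell cannot be told apart in such bulk samples. The part of the marker differences in the results below was not tested.

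The 10 genes together took 1175 and 1095 reads per 1000000 in the KO libraries, against 76.0 and 59.2 in the WT libraries. The call of a gene as higher or lower rested on size: its ratio of means, KO over WT, had to be at least 2 or at most 0.5, with a 95% exact counting interval that excluded 1. Tested genes are those averaging 20 or more normalised reads over KO and WT. All 8 tested members were called higher, where 8.92% of all tested genes were called higher and 8.56% lower. In all 8 the lower KO library exceeded the higher WT library, as it did in 30.4% of tested genes, while 28.8% had both KO libraries below. limma called 7 of the 8 higher at an adjusted p of 0.05, where it called 4.61% of tested genes higher and 4.14% lower. The members were chosen for these values, so nothing is read from these shares. Their median log2 ratio was 3.64, against -0.01 over all tested genes.

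Igf2bp1, Igf2bp2 and Igf2bp3 encode closely related proteins that bind messages and affect their transport, stability and translation. All were low in WT and abundant in KO. Igf2bp2 had 4891 and 4332 normalised reads in the KO libraries, against 54.9 and 20.2 in the WT libraries, a ratio of 123 with a 95% counting interval from 97.8 to 156. The WT libraries were 2.72-fold apart, and without the deeper of them the ratio was 229. Igf2bp1 had 2181 and 2492 in KO, against 27.0 and 31.4 in WT, a ratio of 80.0 (61.5 to 106). Igf2bp3 had 1756 and 1729 in KO, against 26 and 21.3 in WT, a ratio of 73.6 (55.1 to 101). In WT each of the 3 lay among the lowest tested genes, at the 4.64th percentile of level for Igf2bp1, the 6.43rd for Igf2bp2 and the 3.12th for Igf2bp3. In KO their levels were at the 87.5th, 95.1st and 81.4th percentiles. The intervals of Igf2bp1 and Igf2bp3 overlapped, and that of Igf2bp2 overlapped both. The end of Igf2bp3 shares 1529 exon bases with Malsu1 on the opposite strand, and without stated strand their reads cannot be told apart there. Malsu1, listed under its older symbol 2410003K15Rik, had 170.2 and 197 normalised reads in KO and 139.8 and 180.5 in WT.

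Hmga2 encodes an architectural protein whose AT hooks bind the minor groove of AT-rich DNA, and its message is a classic let-7 target. Hmga2 had 4753 and 4476 normalised reads in KO, against 386 and 304 in WT, a ratio of 13.4 (12.4 to 14.5). It was not silent in WT, where it lay at the 38.3rd percentile of level. The groups were far apart, since the lower KO library was 11.6-fold above the higher WT library. The row of its pseudogene Hmga2-ps1 had 65.3 and 126 normalised reads in KO and 100.2 and 135 in WT.

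Nr6a1 (GCNF) encodes an orphan nuclear receptor that represses pluripotency genes in the mouse embryo. Nr6a1 had 1486 and 1248 normalised reads in KO, against 123 and 111 in WT, a ratio of 11.7 (10.2 to 13.4). The libraries of each genotype were close, at most 1.19-fold apart. Plagl2, a zinc finger transcription factor of the PLAG family, had 1246 and 1185 in KO, against 277 and 284 in WT, a ratio of 4.34 (3.95 to 4.77). Its libraries were 1.05-fold apart in KO and 1.03-fold in WT.

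Arid3a and Arid3b encode DNA-binding proteins with an ARID domain, and Arid3a is best known from B cells. Arid3a had 398 and 646 normalised reads in KO, against 106 and 96.4 in WT, a ratio of 5.16 (4.43 to 6.04). Its KO libraries were 1.62-fold apart, while 25.2% of tested genes were at least 1.5-fold apart there. Arid3b had 277 and 191 in KO, against 124 and 63.9 in WT, a ratio of 2.49 (2.10 to 2.96). It was the weakest of the 8, with the lower KO library 1.54-fold above the higher WT library. Without the shallower WT library its ratio was 1.88 and the call was lost. It was also the 1 tested member that limma did not call at an adjusted p of 0.05.

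Lin28b and Hmga1 did not share this pattern. Lin28b, which blocks let-7 maturation and carries 4 let-7 matches, had 0 reads in all 4 libraries. A count of 0 allows up to 3 reads, or 2.76 to 3.36 normalised reads per library. Its paralogue Lin28a also had 0 reads in every library. Hmga1, the second AT-hook gene, had 3.68 and 12.9 normalised reads in KO and 1.93 and 6.73 in WT, too few to be tested. The KO and WT libraries overlapped, and the ratio of 1.92 had an interval from 0.785 to 5.14 and lay at 0.85 without the shallower KO library. The Hmga1 value is uncertain for a further reason. Of the words of 50 bases in its longest transcript, the read length used, 69.1% also occur in transcripts of other genes. How reads with several matches were counted is not given in the sources used here. For Igf2bp2, Nr6a1, Lin28b, Arid3a and Plagl2 the share was 0%, for Igf2bp1 0.516%, for Hmga2 4.36%, for Arid3b 7.57% and for Igf2bp3 34.5%, all of it with Malsu1. Words were compared on both strands. The shared words of Igf2bp1, Arid3b and Igf2bp3 were each with 1 gene (Mir3063, Gm17231 and Malsu1) whose exons overlap theirs in the genome. Such overlap differs from several matches.

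**Figure D2:**
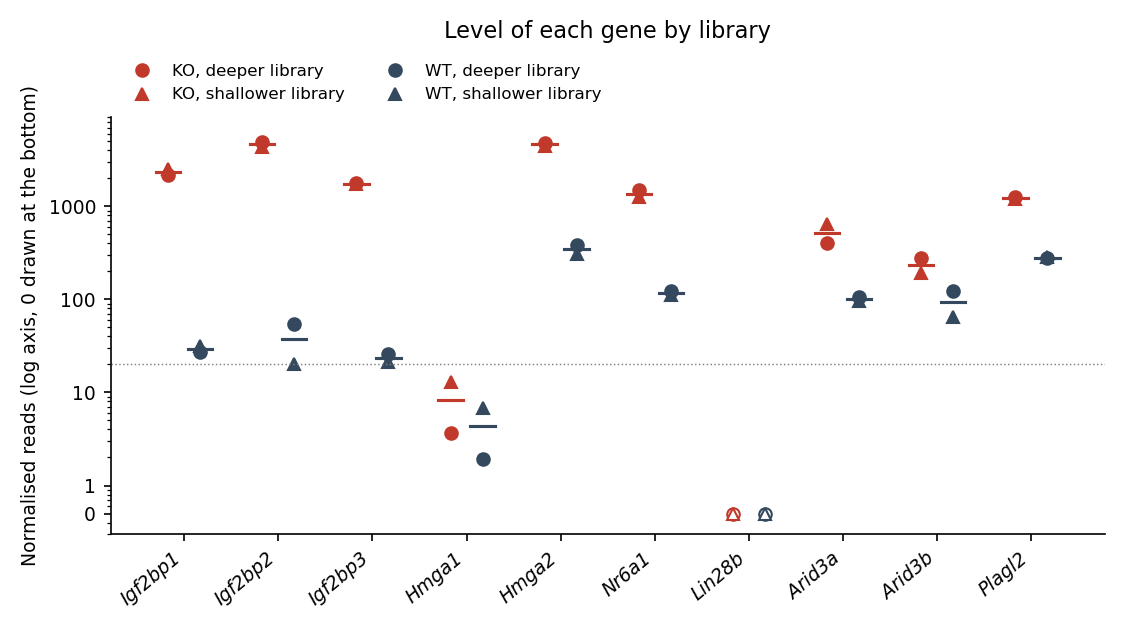
Normalised reads of the 10 genes in each of the 4 recovered libraries, on a log axis with 0 drawn at the bottom as open symbols. Circles and triangles are the deeper and shallower library, short lines the authors' mean, and the dotted line the minimum of 20 for testing. KO lies above WT for 8 genes, Hmga1 overlaps and Lin28b is at 0.

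**Figure D3:**
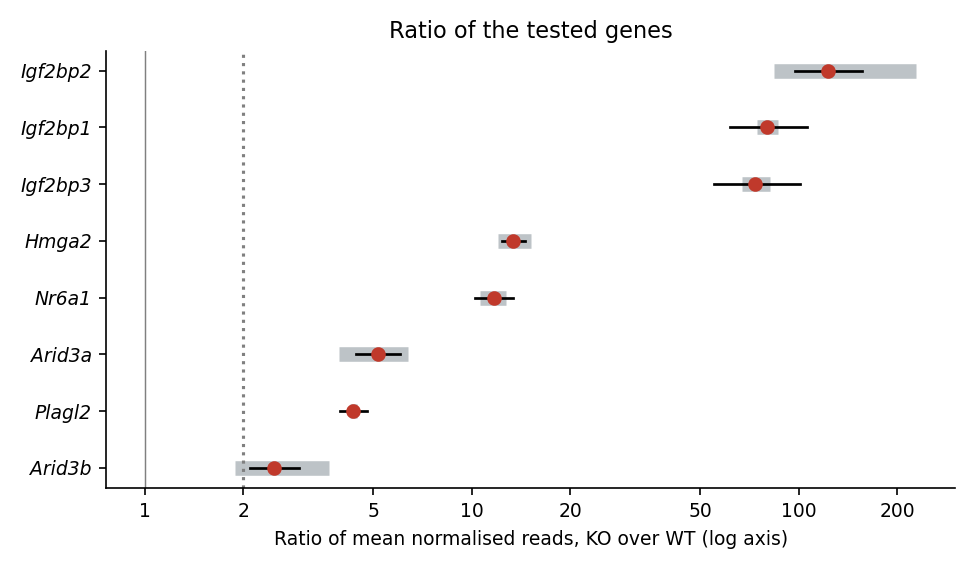
Ratio of mean normalised reads, KO over WT, for the 8 tested genes on a log axis. Points are ratios, black lines 95% counting intervals and grey bars the range when each library is left out. The ratios run from 2.49 for Arid3b to 123 for Igf2bp2, and the bar of Arid3b alone crosses the dotted line at 2.

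Levels between genes were compared per kb of the longest annotated coding transcript. In KO, Hmga2 and Igf2bp2 led with 1211 and 1183 normalised reads per kb, and their libraries overlapped. Igf2bp3 followed at 401 and Igf2bp1 at 279 per kb. Plagl2 and Nr6a1 were level at 218 and 216 per kb, with overlapping libraries. Arid3a was at 97.4 and Arid3b at 56.1 per kb. The order in WT was another. Hmga2 led at 90.5 and Plagl2 followed at 50.3 per kb. Arid3b, Arid3a and Nr6a1 could not be told apart at 22.6, 18.9 and 18.5 per kb. The Igf2bp genes came last, with Igf2bp2 at 9.63 and Igf2bp3 at 5.45 per kb, whose libraries overlapped, and Igf2bp1 at 3.48 per kb.

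The number of let-7 matches did not order the ratios of the 8 tested genes. Nr6a1, with 8 matches, had a log2 ratio of 3.54. Igf2bp2 and Igf2bp3, with 1 match each, had log2 ratios of 6.94 and 6.20, while Plagl2 and Arid3b, also with 1, had 2.12 and 1.31. Igf2bp1 and Hmga2, with 4 each, had 6.32 and 3.74. The 6 with an 8-base match had log2 ratios from 2.37 to 6.94, and the 2 without one, Plagl2 and Arid3b, had the lowest of the 8. This rests on 8 genes chosen for their ratios. Among tested genes that are no members, the median was 0.12 for 407 with 1 match of 8 bases, against 0.14 for 1050 with 1 match of 7 bases or more. These sets share genes, since each 8-base match is also a 7-base match. For 18 with 2 or more 8-base matches the median was 0.50, with 33.3% called higher and 0% lower. For 148 with 2 or more matches of 7 bases or more it was 0.20, with 14.9% higher and 8.11% lower.

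Other genes with many matches were set beside them. Among tested genes that are no members, the median log2 ratio was -0.02 for 10106 genes with no match, 0.14 for 1050 with 1, 0.18 for 128 with 2, 0.79 for 14 with 3 and 0.45 for 6 with 4 or more. Of 20 with 3 or more, 8 were called higher and 0 lower. Of genes with no match, 8.55% were higher and 8.27% lower. Of genes with 1 match 12.1% were higher and 8.86% lower, and of those with 2 matches 10.9% were higher and 9.38% lower. These lower shares were near that of genes with no match. The groups with 3 or more are small and longer 3′ UTRs go with more matches.

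**Figure D4:**
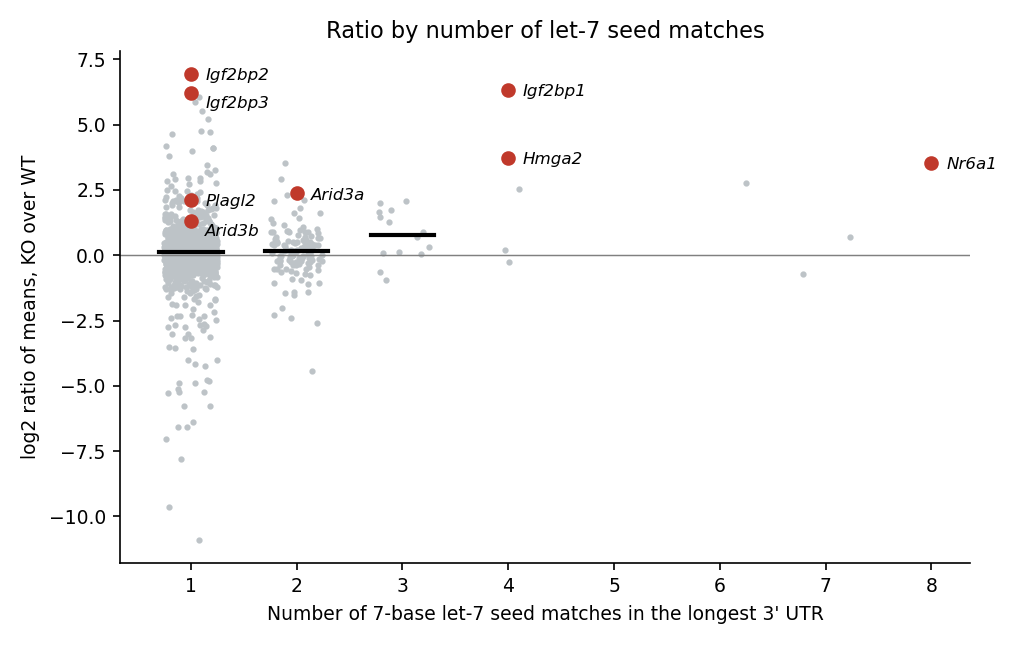
log2 ratio of means, KO over WT, against the number of 7-base let-7 matches in the longest 3′ UTR. Grey points are tested genes that are no members, spread sideways for legibility, with black lines at the medians of 0.14, 0.18 and 0.79 for 1, 2 and 3 matches. No line is drawn for the 6 with 4 or more, whose median was 0.45. Red points are the 8 tested members, which lie between 1.31 and 6.94.

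Most genes that make, modify or block let-7 were not called. The list holds 18, and of the 15 tested 2 were called higher, 0 lower and 13 neither. That is 13.3% higher and 0% lower, beside 8.92% and 8.56% of all tested genes. Only 17.5% of all tested genes were called in either direction, so most genes outside the list were not called either. Their median log2 ratio was 0.03. Trim25, a cofactor of Lin28a in marking precursors for decay, had 1948 and 1829 normalised reads in KO, against 895 and 871 in WT, a ratio of 2.14. Eif2c2 (Ago2), which holds the mature microRNA, had a ratio of 2.40. The adjusted p was 0.0367 for Trim25 and 0.00744 for Eif2c2, as the authors' deposited table gives them. The targeted gene Dicer1 had a ratio of 0.647, below the size needed for a call. The uridylating enzymes Zcchc11 and Zcchc6, which act with Lin28a on precursors, had ratios of 0.908 and 1.5.

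Other published let-7 targets were called in both directions, more often higher than lower. Of 59 in the list, 51 were tested, 10 were higher, 5 were lower and 36 were neither. That is 19.6% higher and 9.80% lower, beside 8.92% and 8.56% of all tested genes, with a median log2 ratio of 0.35. This list, like the other gene lists here, was chosen with earlier results of these data known. Its counts are therefore a description, and nothing is read from the difference to all tested genes. The authors' deposited table called 7 higher and 2 lower at its threshold of 0.1, where it called 5.56% and 5.34% of tested genes. Hic2, a transcriptional repressor gene, had 752 and 432 normalised reads in KO, against 109.9 and 93.1 in WT, a ratio of 5.84. Peg10, an imprinted gene derived from a retrotransposon, had 10865 and 6705 in KO, against 1918 and 1599.8 in WT, a ratio of 4.99. Protogenin (Prtg), a surface protein gene of the early embryo, had a ratio of 4.37. All 3 passed in the authors' deposited table (adjusted p = 0.00966, 0.00364 and 2.5e-06). In the other direction, Edn1 (endothelin-1) had 3.68 and 10.9 normalised reads in KO, against 398 and 1526 in WT, 132-fold lower. With 1 library left out Edn1 was 54.6-fold (without the shallower WT library) to 261-fold lower (without the shallower KO library), and 209-fold without the deeper WT library. The chromatin remodeller gene Chd7 was 3.88-fold lower, and Eif2c4 (Ago4) was 4.31-fold lower, or 2.82-fold without the deeper WT library. Rgs16, a regulator of G protein signalling, had 3.68 and 13.9 in KO, against 19.3 and 78.5 in WT, 5.55-fold lower. It was 2.20-fold lower without the shallower and 8.93-fold without the deeper WT library, and 13.3-fold without the shallower and 3.52-fold without the deeper KO library. Of these 4, Edn1 and Chd7 passed in the authors' deposited table (adjusted p = 0.0463 and 0.0345). Edn1, Rgs16 and Eif2c4, with means of 7.31, 8.81 and 15.1 normalised reads in KO, reached the level tested only through WT. At such KO levels the filter itself selects for a lower call. In the deeper KO library Edn1 and Rgs16, both at 3.68, lay near the 2.76 that a count of 0 allows. With a mean of at least 100 required, 9 of the list were called higher and 3 lower. No gene of this list reached the ratio of Hmga2 or of the Igf2bp genes.

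Most messages known to be bound by Igf2bp proteins were not called. Their median log2 ratio was -0.16 over 15 tested genes, of which 2 were called higher, 1 lower and 12 neither. That is 13.3% higher and 6.67% lower, beside 8.92% and 8.56% of all tested genes. Without the member Hmga2, chosen for its values, 1 of 14 was called higher and 1 lower, and the median was -0.20. Whether Igf2bp proteins act on these messages was not tested. The 2 higher were Hmga2 itself and Cdk6, a cell cycle kinase gene that is also a let-7 target, with 281 and 363 normalised reads in KO, against 141 and 142 in WT. The ratio of Cdk6 was 2.28, and 1.99 without the shallower KO library. Lamb2, a laminin chain gene, was 2.17-fold lower, but 1.70-fold without the shallower KO library and 1.69-fold without the deeper WT library. Most genes regulated by HMGA or PLAG proteins were not called either. Their median was 0.15 over 13 tested genes, of which 3 were called higher, 1 lower and 9 neither. The shares were 23.1% higher and 7.69% lower. Igf2bp2, which Hmga2 activates, was among the higher. Without this member, chosen for its values, 2 of 12 were called higher and 1 lower, with a median of 0.15. Mest, an imprinted gene, had 1010 and 183 in KO, against 103 and 29.1 in WT, a ratio of 9.02 with an adjusted p of 0.628 in the authors' deposited table. Leaving out the deeper KO library gave Mest a ratio of 2.77, and leaving out the shallower gave 15.3. Of the WT libraries, leaving out the deeper gave 20.5 and the shallower 5.79. The AP-1 gene Junb had a ratio of 2.39, and 1.88 without the shallower WT library. Snai2, a factor of epithelial to mesenchymal transition, was 3.28-fold lower, or 5.46-fold without the deeper KO library. Igf2, the namesake message of the Igf2bp proteins and a PLAG target, had 0 reads in both KO libraries and 16.4 and 1.12 normalised reads in WT, under the level tested.

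Of the other oncofoetal genes that were tested, all but 1 were called. The list holds 22, and of the 10 tested 7 were called higher, 2 lower and 1 neither. Their median log2 ratio was 2.43. Over all tested genes 8.92% were higher and 8.56% lower. The list was chosen with earlier results known, so these counts are a description. Plag1 and Afp, with means of 12.2 and 10.4 normalised reads in WT, reached the level tested only through KO. At such WT levels the filter itself selects for a higher call. With a mean of at least 100 required, 4 of the list were called higher and 2 lower. The authors' deposited table called 5 higher and 2 lower. Tead4, a TEAD factor gene that acts with YAP, had 359 and 538 normalised reads in KO, against 20.2 and 29.1 in WT, a ratio of 18.2. Plag1 had 123 and 83.6 in KO, against 15.4 and 8.97 in WT, a ratio of 8.48. Both passed by the authors' deposited table, Tead4 at an adjusted p of 1.18e-08 and Plag1 at 8.69e-05. Afp (alpha-fetoprotein) had 29.4 and 98.5 in KO, against 9.64 and 11.2 in WT, and like Mest it did not pass there. Its ratio of 6.14 was 2.82 without the shallower and 9.45 without the deeper KO library. Cdkn1c, an imprinted inhibitor of cell division, had 24.8 and 20.9 in KO, against 293 and 154 in WT, 9.77-fold lower. Tpbg, the trophoblast glycoprotein gene, was 3.36-fold lower. Sall4, Dlk1, Trim71 and Lin28a had 0 reads in all 4 libraries. Peg10, Ccnd2, Mycn, Trim71 and Lin28a stand in this list and in that of let-7 targets.

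Family relatives of the 10 genes showed no common direction. The list holds 11, and of the 6 tested 2 were called higher, 1 lower and 3 neither. That is 33.3% higher and 16.7% lower in a small list, beside 8.92% and 8.56% of all tested genes. The PLAG family split, since Plag1 and Plagl2 were higher while Plagl1, an imprinted relative, had 35.0 and 17.9 normalised reads in KO, against 1096 and 519 in WT, 30.6-fold lower. Without the deeper WT library Plagl1 was 19.6-fold lower. Arid5a had a ratio of 2.12, or 1.87 without the deeper WT library, and Arid5b, Nr2c1 and Nr2c2 had ratios of 0.597, 0.833 and 1.08. Arid3c had 0 reads in KO and 4.82 and 2.24 normalised reads in WT. Nr5a1 and Nr5a2 averaged 0.46 and 4.40 normalised reads in KO and 0.561 and 5.29 in WT.

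**Figure D5:**
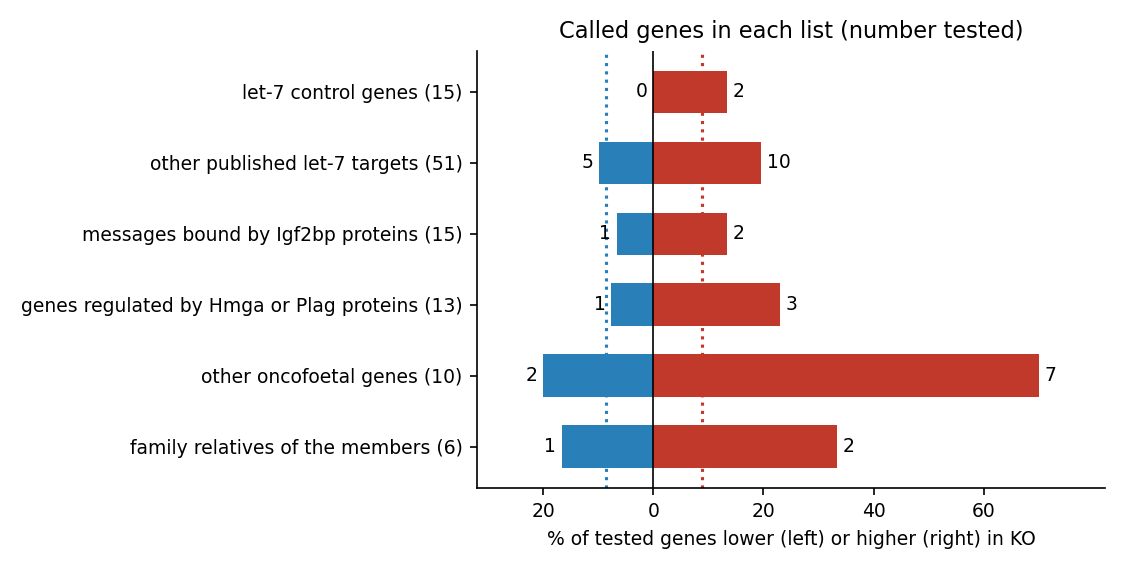
Share of tested genes called higher (red, right) or lower (blue, left) in KO in 6 gene lists, with the number called at each bar and the number tested in brackets. Dotted lines mark 8.92% higher and 8.56% lower over all tested genes. The other oncofoetal genes had 7 higher and 2 lower of 10, and the let-7 control genes 2 higher and 0 lower of 15.

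The genes whose levels were most like the mean of Igf2bp1, Igf2bp2 and Igf2bp3 were Cadm1, Daam2, Slpi, Ntn1 and Bmf. Likeness was the Euclidean distance of log2(normalised reads + 1) over the 4 libraries. Cadm1, a cell adhesion gene, was nearest at a distance of 1.11, closer than Igf2bp2 itself at 1.34, with 2139.5 and 1662 normalised reads in KO, against 55.9 and 32.5 in WT. The other 4 lay at distances from 1.85 to 2.41. Their ratios were 56.0 for Daam2, 37.5 for Slpi, 26.5 for Ntn1 and 38.3 for Bmf. Slpi had 75.2 and 7.85 normalised reads in WT, and its ratio was 198 without the deeper and 20.7 without the shallower WT library. Daam2 had a ratio of 91.4 and Bmf of 62.7 when the deeper WT library was left out, and without the deeper KO library 35.4 for Daam2 and 23.5 for Bmf.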

How the data were processed

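PolyA RNA was sequenced as paired reads from 1 sample per genotype, per the labels. TopHat 1.4.0, DESeq 1.10.1 and the build mm9 appear, without role or order, among the submitters' processing notes. The authors deposited 1 table: per file headers, a signal per gene (mean read count after size-factor division, per genotype and over both), the ratio of those means, its log2 value, and p-values with adjusted p-values. The comparison's title names WT before KO, so condition A was taken for WT and B for KO, and every direction rests on this. From the deposited means, whole reads of 2 libraries per genotype were recovered for 100% of genes above 0, and size factors recomputed from them matched. Ratio intervals are Clopper-Pearson (95%) and cover counting error only, since reads are not independent molecules. limma 3.58.1 (R 4.3.3) on log2(normalised reads + 1) of the 4 libraries was an alternative, with p-values adjusted over all tested genes. Its p-values measure only the spread between these libraries, which may be technical. Procedures were tested on simulated data.

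Members and lists were chosen with earlier results of these data known. In each list up to 4 called genes per direction with the largest log2 ratios are named, all family relatives, Dicer1, and the 5 genes nearest to the Igf2bp mean. Others named (Zcchc11, Zcchc6, Igf2, Ccnd2, Sall4, Dlk1, Trim71, Thy1, and rows that overlap a member or are its pseudogene) were chosen after their values were seen. Some genes that the rule names are not reported here. Seed matches were counted in GENCODE M21 sequence (GRCm38), not the authors' build, with 89.7% of symbols matched directly and 8.33% through RefSeq synonyms. Alternatives covered scaling, filters, fold, call rule, each library left out, added reads, match length and 3′ UTR choice.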

Additional observations from a re-analysis of the deposited data

How the results depend on the processing

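Of the 10 genes, 8 were called under every scaling and filter tried, under the authors' adjusted p, at a fold of 1.5 and without either KO library or the deeper WT library. Under limma, at a fold of 3 and without the shallower WT library 7 were, Arid3b being the one lost. The log2 ratio of Hmga1 turned to -0.23 without the shallower KO library, in which most of its few KO reads lie, and was 2.11 without the shallower WT library. Over all tested genes 2046 were called, against 1276 by the authors' adjusted p, 1025 by limma, 4122 at a fold of 1.5 and 1083 at a fold of 3. At folds of 1.5 and 3, 5 and 0 let-7 control genes were called (main 2), 33 and 8 other let-7 targets (main 15), and 5 and 1 messages bound by Igf2bp proteins (main 3). The authors' adjusted p called 9 other let-7 targets and 2 of the Hmga or Plag genes (main 4). limma called 5 other let-7 targets, 1 bound message, 2 Hmga or Plag genes and 5 other oncofoetal genes (main 9). With no filter on low values 6 bound messages were called. The median log2 ratio of all tested genes with at least 2 let-7 matches was 0.22. It was 0.65 with 8-base matches, which leave fewer genes, 0.29 for genes with a mean of at least 100, and 0.22 to 0.34 with a library left out, highest without the shallower WT library. These medians include members, which were chosen for their ratios. Without the members the median was 0.20, and 0.50 with 8-base matches. The causes were not tested. Of the 10 genes, 7 held an 8-base match, 10 a 6-base match, and 8 a 7-base match in their shortest 3′ UTR. No paired analysis was possible because the labels give no replicate numbers. Precision of Hmga1 is limited by 17 KO and 8 WT reads.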
